A study of Mus musculus with 30 samples.

Results

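The liver makes most of the complement and coagulation proteins of the blood, and the transcripts of 37 such factors and their inhibitors were compared between the livers of germfree and conventional mice. A member was measured when the platform annotation gave its symbol to a probe, the probe used for a gene was the one with the highest mean signal, and it had to have a detection p-value under 0.05 on at least 7 of 30 arrays. By this rule 35 of the 37 genes had a named probe and 34 were tested, among 9084 genes tested in all. Complement C3 and the carboxypeptidase gene Cpb2 had no named probe, and the probe for the fibrinogen beta chain gene Fgb was detected on 0 of 30 arrays, so these 3 genes were not analysed here. Fgb is abundant in liver, and whether its probe matches the expressed transcript was not tested. The other 34 were each detected on all 30 arrays.

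All mice were of the C57BL/6J strain, ate a high-fat diet for 11 weeks and went 10 h without food before the livers were taken. The conventional group (n = 16 livers) carried a microbiota and the germfree group (n = 14 livers) did not, and each array held the RNA of 1 liver. The comparison asks how the absence of microbes alters hepatic transcripts under that diet. No group on another diet, no age and no sex was given in the sources used here. RNA of the Y-linked gene Eif2s3y was detected on all 30 arrays (log2 signal 7.37 to 8.87). Raw signal averaged 245 ± 67.4 intensity units (SD, n = 16) over the conventional arrays and 247 ± 73.6 (SD, n = 14) over the germfree arrays (two-sided permutation p = 0.938), and it ran from 85.5 to 359 between arrays. Of 10 hepatocyte markers, 7 were tested and none passed the threshold, and their summed linear signal ran from 126541 to 162227 (conventional) and from 130574 to 165478 (germfree). The albumin probe, Alb, and that of Tat were not detected, and Ambp had no named probe. Albumin RNA is abundant in hepatocytes, so the match of the Alb probe to the transcript is in doubt and was not tested.

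Coagulation is a chain of serine proteases made in the liver as inactive precursors. It can start from the contact system (factor XII, prekallikrein, factor XI and kininogen) or from tissue factor with factor VII, and it ends with thrombin cleaving fibrinogen into fibrin. Antithrombin, heparin cofactor II, protein C and protein S hold it in check, and plasmin dissolves the clot. Complement is a second such chain, started by antibody-bound C1q, by lectins that bind microbial sugars or by slow spontaneous activation, and it ends in a pore built from C5b, C6, C7, C8 and C9.

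Among the 34 tested genes, 5 were higher in germfree liver at an adjusted p under 0.05 (limma, Benjamini-Hochberg over all 9084 genes), where 3.75% of all genes tested were higher. They were factor XI (F11), prekallikrein (Klkb1), factor V (F5), protein S (Pros1) and complement C6 (C6). One gene was lower, the lectin pathway protease Masp2, where 2.74% of all genes tested were lower, and the other 28 did not pass. In both directions together, 6.49% of all genes were called. The changes were small, between 1.12-fold and 1.31-fold. No gene of the 34 had groups without overlap, a separation seen in 5 of the 9084 genes (0.0550%). The median log2 change (germfree minus conventional) over the 34 was 0.10, against -0.00 over all genes, and 24 of 34 changes were above 0 (70.6%), against 49.9% of all genes. At an unadjusted p under 0.05, 12 of the 34 were higher and 1 was lower, against 10.0% and 8.74% of all genes. Under median scaling of the arrays in place of quantile normalization, 0.760% of all genes were called (0.462% higher and 0.297% lower) and none of the 34, although the 6 kept their directions. That median was taken over all probes, detected or not. The SE there was 0.155 for F11 and 0.153 for Masp2, against 0.075 and 0.046 by quantile normalization.

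**Figure D1:**
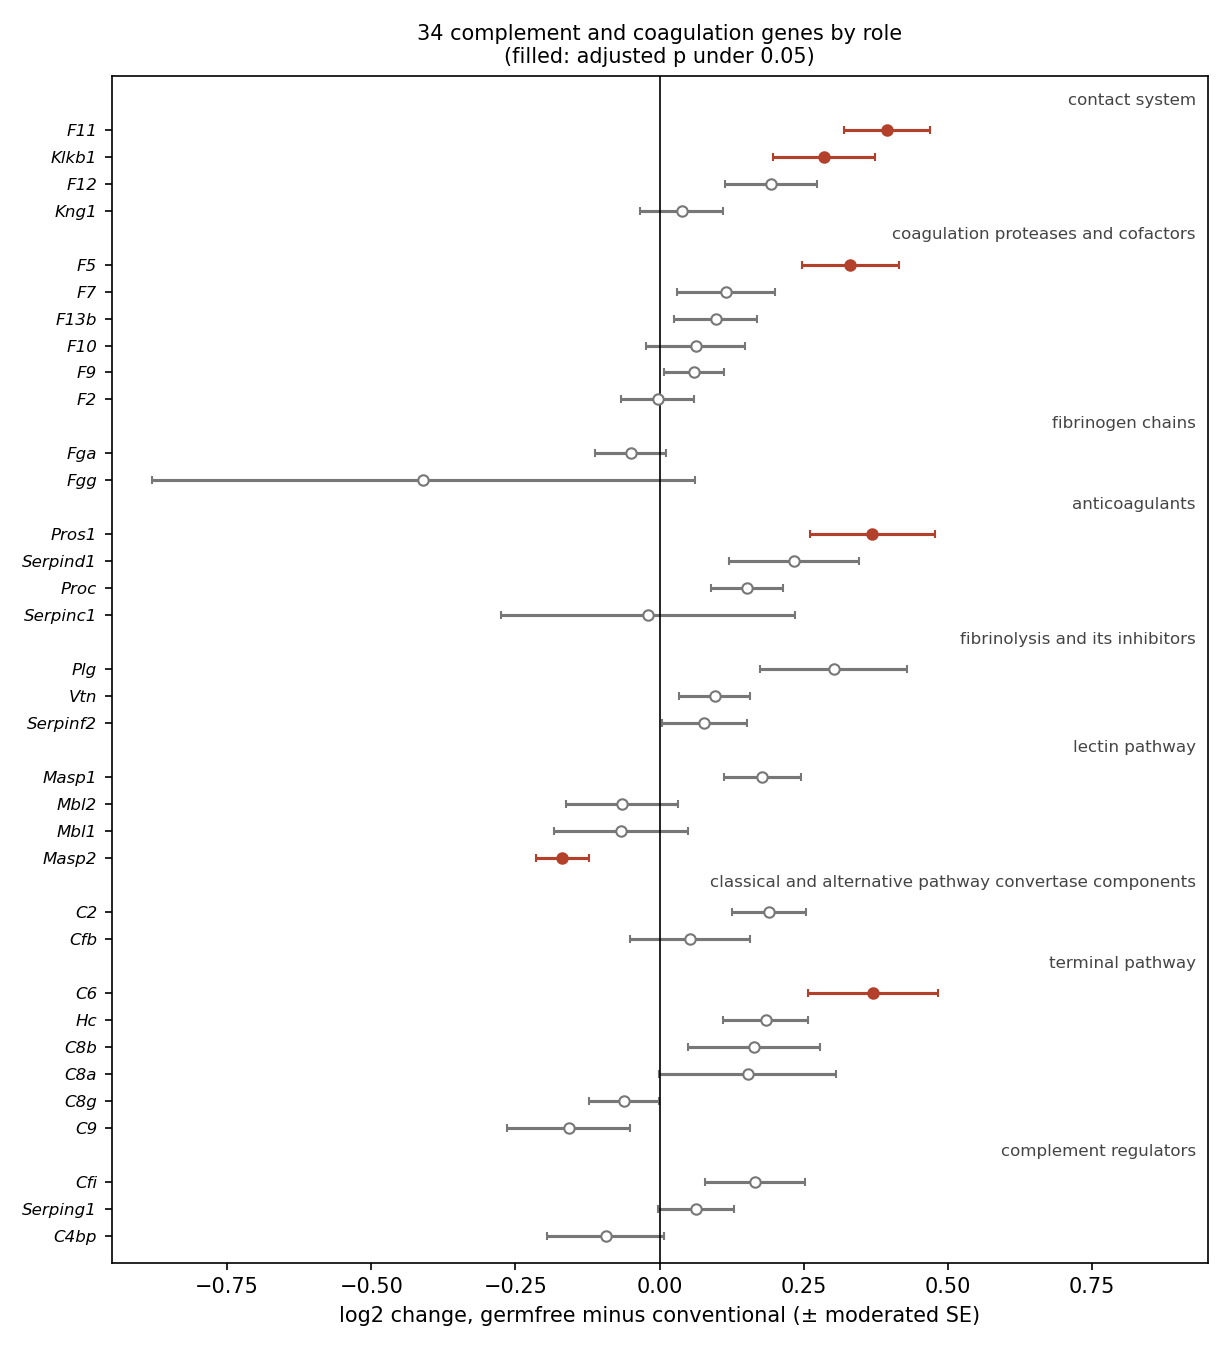
Log2 change (germfree minus conventional) of the 34 tested complement and coagulation genes, grouped by role, with the moderated standard error as bars (14 germfree and 16 conventional livers). Filled points passed an adjusted p of 0.05: F11, Klkb1, F5, Pros1 and C6 lie to the right of 0 and Masp2 to the left, while the bar of Fgg is the longest.

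**Figure D2:**
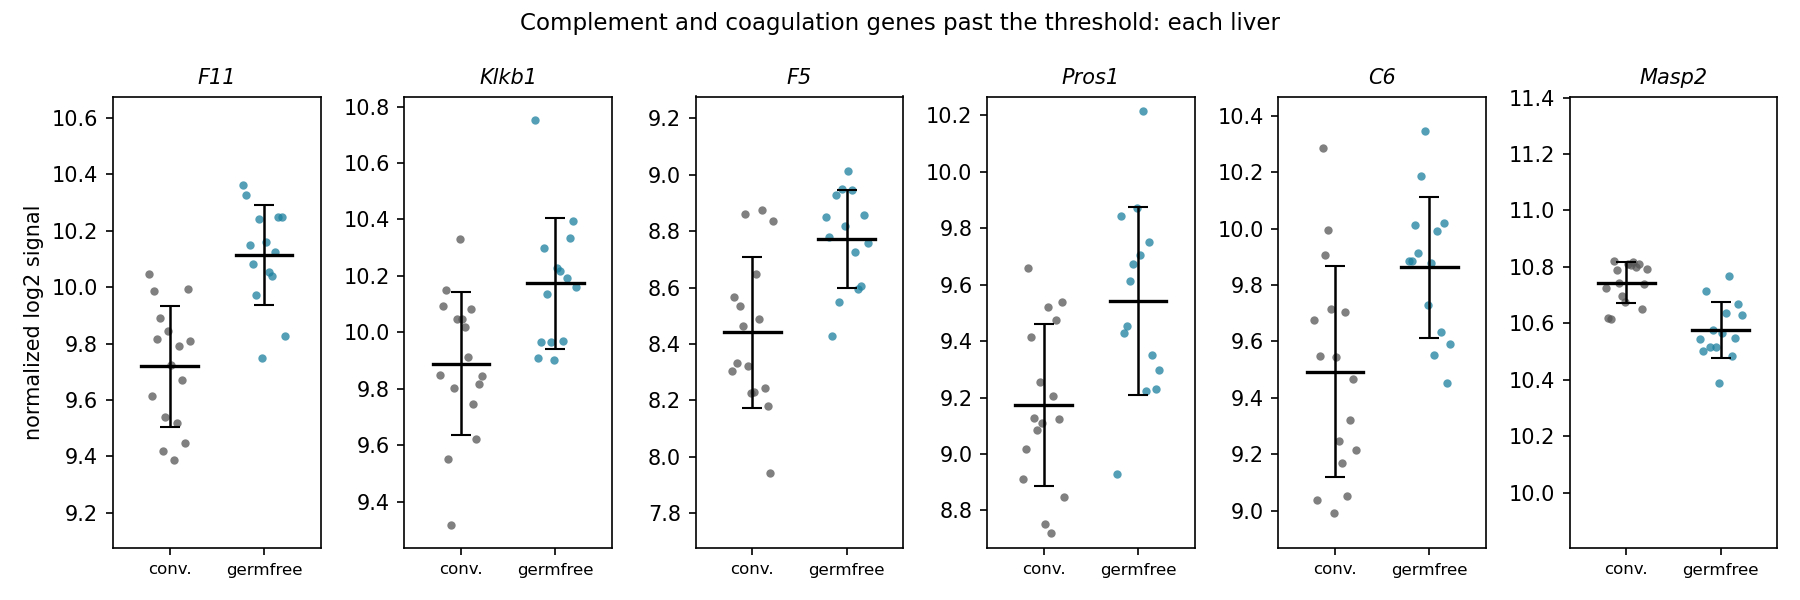
Normalized log2 signal of the 6 genes past the threshold in each liver (points), with the mean and SD of each group (lines and bars; conventional, n = 16; germfree, n = 14). Each panel has its own axis of equal length. The groups overlap in all 6 panels, and the Masp2 points lie closest together.

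The upstream sequence of 4 of these 6 genes is shown, since F11 and Klkb1 are neighbours that changed in the same direction and Pros1 and Masp2 moved in opposite directions. Of the 34 tested genes, 26 had an entry in the RefSeq promoter table (27 windows of GRCm38.p6); Serping1, Proc, Plg, Kng1, C2, Cfb, Cfi and Masp1 did not. Each sequence is the 250 bases before a listed transcript start, 5′ to 3′ on the strand of the gene, and the starts listed for F11 and Masp2 lie inside the annotated genes. Capitals mark letters of TGTTTAC, a forkhead (FOX) motif, or of TTCNNNGAA, a STAT motif, searched on both strands. The windows of the remaining called genes, F5 and C6, held neither motif and are not shown. The 4 windows are F11 at chr8:45262032-45262281 (minus strand), Klkb1 at chr8:45294836-45295085 (minus strand), Pros1 at chr16:62854057-62854306 (plus strand) and Masp2 at chr4:148602294-148602543 (plus strand).
F11: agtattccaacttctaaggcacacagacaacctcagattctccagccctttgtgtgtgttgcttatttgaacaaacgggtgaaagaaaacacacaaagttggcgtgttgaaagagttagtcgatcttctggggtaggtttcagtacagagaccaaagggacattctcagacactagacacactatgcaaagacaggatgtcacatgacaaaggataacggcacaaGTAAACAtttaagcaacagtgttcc
Klkb1: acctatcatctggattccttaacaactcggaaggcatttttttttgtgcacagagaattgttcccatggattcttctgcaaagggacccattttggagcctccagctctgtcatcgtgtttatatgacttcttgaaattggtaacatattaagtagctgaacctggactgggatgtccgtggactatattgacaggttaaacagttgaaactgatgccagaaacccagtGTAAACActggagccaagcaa
Pros1: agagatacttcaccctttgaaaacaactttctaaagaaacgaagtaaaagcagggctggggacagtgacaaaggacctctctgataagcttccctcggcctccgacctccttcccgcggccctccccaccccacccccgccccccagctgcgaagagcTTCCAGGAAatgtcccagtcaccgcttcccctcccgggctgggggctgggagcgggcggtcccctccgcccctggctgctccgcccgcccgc
Masp2: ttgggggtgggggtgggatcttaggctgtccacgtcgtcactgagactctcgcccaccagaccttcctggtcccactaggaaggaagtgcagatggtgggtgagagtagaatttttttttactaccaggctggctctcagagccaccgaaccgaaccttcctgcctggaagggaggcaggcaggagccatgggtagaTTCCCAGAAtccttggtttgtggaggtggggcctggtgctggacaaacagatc

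Counted from -1 at the base before the start, the forkhead letters lie at -25 to -19 in F11 and at -21 to -15 in Klkb1, in both on the strand opposite to the gene. They occur in 2 of the 27 windows of the tested genes and in 3.17% of all 32851 windows of the table. The STAT letters lie at -92 to -84 in Pros1 and at -53 to -45 in Masp2. They occur in 5 of the 27 windows and in 7.02% of all windows. An HNF1 motif (GTTAAT) was in 7 of 27 against 6.43%, an HNF4 motif (CAAAGTCCA) in 0 against 0.384%, a C/EBP motif (TTNNGNAA, not in capitals) in 11 against 36.8%, and the inverted repeat motif of the bile acid receptor in 0 against 0.00609%, each searched on both strands. Among the called genes, the HNF1 letters were in none and the C/EBP letters in F11, Pros1, Klkb1 and C6. The C/EBP letters in F11, TTAAGCAA, start at -17 and do not overlap the forkhead letters. A match describes letters in these windows and says nothing of binding.

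In the contact system, 2 of 4 genes rose and the other 2 did not pass. Over all genes tested, 3.75% were higher and 2.74% lower, the shares to set beside the count of each role. Of the 2 that rose, only F11 held in all 30 fits that left out 1 liver. F11, the precursor of the protease that activates factor IX, had a normalized log2 signal of 9.39 in the lowest, 9.76 in the median and 10.05 in the highest conventional liver. In germfree livers these values were 9.75, 10.14 and 10.36. The groups overlapped, but 10 of 14 germfree livers lay above the highest conventional liver and no germfree liver fell below the conventional mean. The deposited intensity before normalization was 334, 825 and 1401 in conventional and 601, 1111 and 2114 in germfree livers. The log2 change was 0.39 ± 0.07 (SE), a 1.31-fold rise (adjusted p = 0.000712), and it remained past the threshold in all 30 fits that left out 1 liver. A further F11 probe had a log2 change of 0.22 ± 0.10 (adjusted p = 0.209 over all probes).

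Klkb1, prekallikrein, activates factor XII and releases bradykinin from kininogen. Its log2 signal was 9.32, 9.88 and 10.33 in the lowest, median and highest conventional liver and 9.90, 10.18 and 10.75 in germfree livers. Only 3 germfree livers lay above the highest conventional liver, while the conventional mean was exceeded by all 14. The rise was 1.22-fold (log2 change 0.28 ± 0.09, adjusted p = 0.0459). This call was lost without any 1 of 18 livers, 9 in each group, with an adjusted p of up to 0.0828 (log2 change 0.24, without germfree liver 7). F12, factor XII, had a log2 change of 0.19 ± 0.08 (adjusted p = 0.161), and Kng1, kininogen, had 0.04 ± 0.07.

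F11 and Klkb1 are paralogs that lie side by side on chromosome 8, at chr8:45240659-45262055 and chr8:45266688-45294835 in GRCm38.p6. The next gene, Cyp4v3 (chr8:45305801-45333163), which encodes a fatty acid hydroxylase, had a log2 change of -0.17 ± 0.09 (adjusted p = 0.346). The probes of the following neighbours, Fam149a and Tlr3, were removed by the detection filter. Across livers, neither correlation of F11 with Klkb1 passed: Pearson's r was -0.10 in conventional livers (rho -0.16, n = 16, permutation p = 0.709, adjusted 0.834) and 0.17 in germfree livers (rho 0.00, n = 14, permutation p = 0.560, adjusted 0.800). Under median scaling r was 0.78 and 0.81, past the threshold in both groups, and under median scaling restricted to probes detected on every array it was 0.04 and 0.17, so the scaling decides this value. The pair was chosen after both changes were seen, and without the 2 livers farthest from the F11 median r was -0.18 and 0.04.

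Of the 6 coagulation proteases and cofactors, 1 rose and 5 did not pass. F5, the cofactor with which factor Xa activates prothrombin, had a log2 signal of 7.94, 8.40 and 8.88 (lowest, median and highest conventional liver) and of 8.43, 8.80 and 9.01 in germfree livers. The ranges overlapped over much of their length, with 13 of 14 germfree livers above the conventional mean and 4 above the highest conventional liver. The rise was 1.26-fold (log2 change 0.33 ± 0.08, adjusted p = 0.0123) and passed in all 30 fits that left out 1 liver. The proteases around it had smaller values. Prothrombin, F2, had a log2 change of -0.00 ± 0.06, factor VII (F7) 0.12 ± 0.09, factor IX (F9) 0.06 ± 0.05, factor X (F10) 0.06 ± 0.09 and the carrier subunit of the fibrin crosslinking factor XIII (F13b) 0.10 ± 0.07, with adjusted p between 0.526 (F7) and 0.983 (F2). In F10 the germfree livers spread more widely, from 11.06 to 12.27 on the log2 scale, than the conventional livers, from 11.43 to 11.92.

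The 2 fibrinogen chains tested did not pass. The alpha chain gene Fga was among the evenly expressed members, with a mean log2 signal of 14.84 ± 0.11 (SD) over the 16 conventional livers and of 14.79 ± 0.19 over the 14 germfree livers (log2 change -0.05 ± 0.06, adjusted p = 0.742). By contrast the probe of the gamma chain gene, Fgg, ran from 5.47 over a median of 7.89 to 9.36 in conventional livers and from 5.01 over 6.58 to 9.87 in germfree livers. Both groups thus spanned nearly the same wide range, and the log2 change was -0.41 ± 0.47 (adjusted p = 0.722).

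Anticoagulant genes included 1 riser among 4. Pros1, protein S, is the vitamin K-dependent cofactor of activated protein C, and it also bridges apoptotic cells to receptors on phagocytes. Its log2 signal was 8.72, 9.13 and 9.66 in the lowest, median and highest conventional liver and 8.93, 9.53 and 10.21 in germfree livers. The groups overlapped from 8.93 to 9.66, and 6 germfree livers lay above that range. The rise was 1.29-fold (log2 change 0.37 ± 0.11, adjusted p = 0.0338; 13 of 14 germfree livers above the conventional mean). It was lost without any 1 of 10 livers, 5 in each group, with an adjusted p of up to 0.0639 (log2 change 0.32, without germfree liver 11).

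Proc, protein C, had a log2 change of 0.15 ± 0.06 (adjusted p = 0.160), with 8 of 14 germfree livers above the highest conventional liver. Heparin cofactor II, Serpind1, had 0.23 ± 0.11 (adjusted p = 0.252). Antithrombin, Serpinc1, had -0.02 ± 0.26 (adjusted p = 0.979), the second largest standard error of the 34 after Fgg. Protein S and protein C, like prothrombin and factors VII, IX and X, need gamma-carboxylation, for which vitamin K is recycled. Of 6 genes of that cycle, 5 were tested and none passed. The carboxylase gene Ggcx had a log2 change of -0.01 ± 0.08, the reductase gene Vkorc1 had -0.05 ± 0.06 and its paralog Vkorc1l1 had -0.17 ± 0.06 (adjusted p = 0.0872).

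Among the 3 genes of fibrinolysis and its inhibitors none passed. Plg, plasminogen, had the lowest adjusted p of them, with a log2 signal of 9.51, 10.22 and 10.85 in the lowest, median and highest conventional liver and 9.58, 10.65 and 11.00 in germfree livers. The ranges nearly coincided, and the log2 change was 0.30 ± 0.13 (adjusted p = 0.178). Without germfree liver 3 the adjusted p was 0.0472. A further Plg probe pointed the other way (-0.12 ± 0.17), the only 1 of 6 further probes of tested members to differ in sign from the probe used. The plasmin inhibitor Serpinf2 had 0.08 ± 0.07, and vitronectin, Vtn, which stabilizes plasminogen activator inhibitor 1, had 0.10 ± 0.06.

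The lectin pathway held the single lower gene. Masp2 encodes the protease that, bound to mannose-binding lectins or ficolins, cleaves C4 and C2. Its log2 signal was 10.61, 10.77 and 10.82 in the lowest, median and highest conventional liver and 10.39, 10.56 and 10.77 in germfree livers. Here 9 of 14 germfree livers lay below the lowest conventional liver and 13 below the conventional mean. It fell by 0.17 on the log2 scale (± 0.05, 1.12-fold, adjusted p = 0.0192). This was the smallest change of the 6 called. The SD between livers within groups was 0.087, and no other gene among the 9084 had a lower one. The call held in all 30 fits without 1 liver.

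The companion protease gene Masp1 had a log2 change in the other direction (0.18 ± 0.07, adjusted p = 0.117). The mannose-binding lectin genes Mbl1 and Mbl2 had -0.07 ± 0.12 and -0.07 ± 0.10. Thus 3 of the 4 lectin pathway genes had values below 0, and only Masp2 passed.

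Both tested genes of the classical and alternative convertases had values above 0 and neither passed. C2, which supplies the protease of the classical and lectin C3 convertase, had a log2 signal of 10.46, 10.71 and 11.13 (lowest, median and highest conventional liver) and of 10.66, 10.89 and 11.23 in germfree livers. The 2 ranges were shifted but overlapped over most of their length. The log2 change was 0.19 ± 0.06 (adjusted p = 0.0682). Without conventional liver 7 or without germfree liver 3 or 4 the adjusted p of C2 was between 0.0206 and 0.0460. Factor B, Cfb, the protease of the alternative convertase, had 0.05 ± 0.10.

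In the terminal pathway 1 of 6 genes rose. C6, which binds C5b as the second component of the membrane pore, had a log2 signal of 8.99, 9.51 and 10.29 in the lowest, median and highest conventional liver and of 9.45, 9.89 and 10.34 in germfree livers. The highest livers of the 2 groups were alike, and the lower end of the range was absent from the germfree group. The rise was 1.29-fold (log2 change 0.37 ± 0.11, adjusted p = 0.0417; 13 of 14 germfree livers above the conventional mean). It was lost without any 1 of 18 livers, 9 in each group, with an adjusted p of up to 0.0775 (log2 change 0.33, without germfree liver 11). C6 is a male-biased gene of mouse liver, and the sex of the animals was not given in the sources used here. The Y-linked Eif2s3y was detected on all 30 arrays, with a log2 signal of 7.49 to 8.52 in conventional and 7.37 to 8.87 in germfree livers. The part of sex in the C6 change was not tested.

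The other terminal components did not pass. C5, named Hc in mouse, had a log2 change of 0.18 ± 0.07 (adjusted p = 0.146), with 12 of 14 germfree livers above the conventional mean. The 3 chains of C8 had 0.15 ± 0.15 (C8a), 0.16 ± 0.12 (C8b) and -0.06 ± 0.06 (C8g). C9, which polymerizes to form the pore, had -0.16 ± 0.11 (adjusted p = 0.468). None of the 3 complement regulators passed either. Cfi, the protease that inactivates C3b and C4b, had a log2 signal of 11.42, 11.86 and 12.35 in the lowest, median and highest conventional liver and of 11.81, 11.98 and 12.61 in germfree livers. Its ranges overlapped, with a log2 change of 0.17 ± 0.09 (adjusted p = 0.312). The cofactor gene C4bp had -0.09 ± 0.10, and the C1 inhibitor gene Serping1, which also blocks kallikrein and factor XIIa, had 0.06 ± 0.07.

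The members differed widely in how much they varied between livers of 1 group. The SD within groups had a median of 0.23 over the 34 on the log2 scale, against 0.24 over all genes. Masp2 stood at the low end with 0.087 and Fgg at the high end with 1.41, a spread larger than that of 99.97% of all genes tested. Serpinc1 followed with 0.76, above 99.2% of genes. The raw intensity of Fgg ran from 69.1 to 529 in conventional and from 69.2 to 1211 in germfree livers, and the probe was detected on every array. Neither Fgg nor Serpinc1 had a further probe, so the spread of each rests on 1 probe. Their mean log2 signal in conventional livers was 7.37 and 6.84, against 14.84 for Fga. Whether the probes of Fgg and Serpinc1 match the expressed transcripts was not tested, so their values may not describe the genes.

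**Figure D3:**
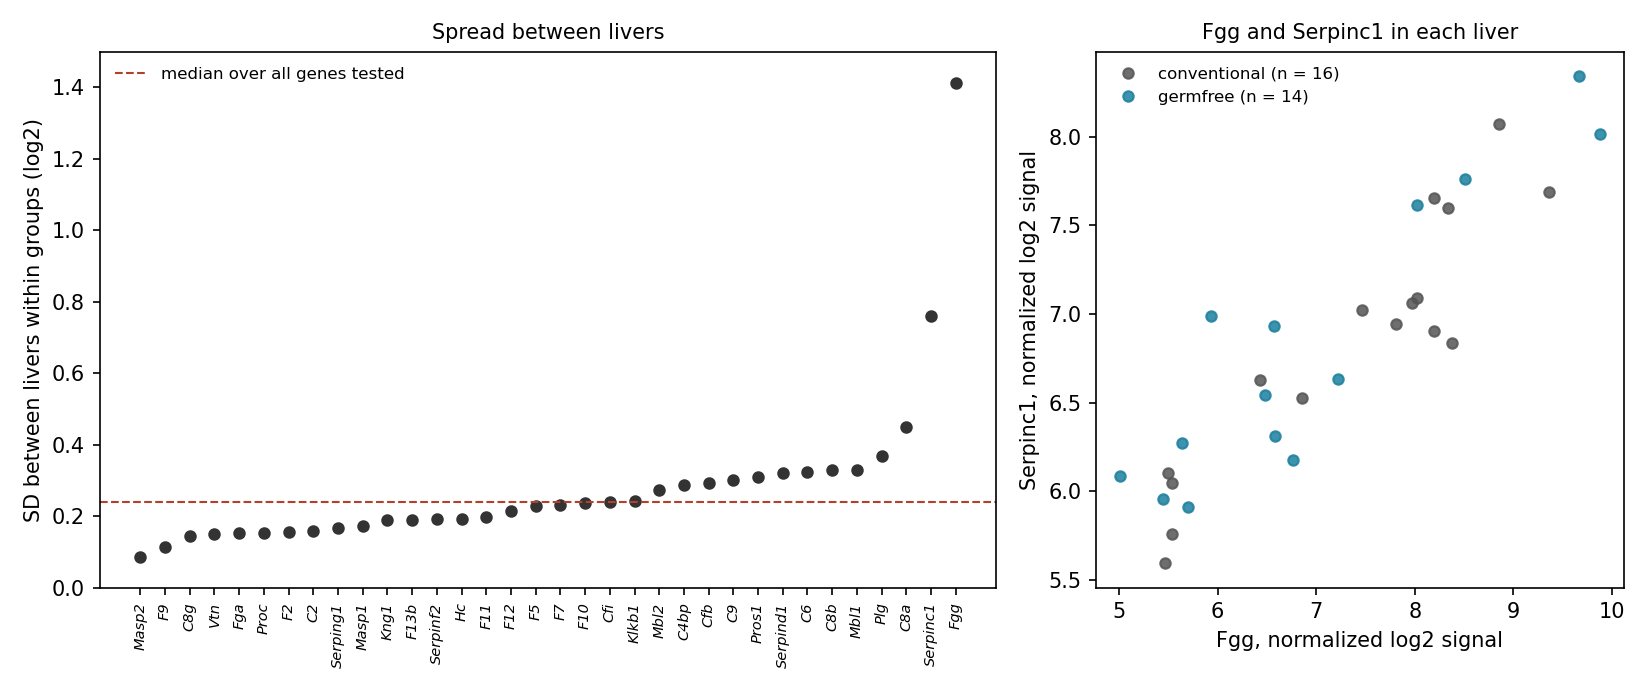
Left, SD between livers within groups (log2 signal) of each of the 34 tested genes in rising order, with the median over all genes tested as a dashed line. Masp2 is lowest at 0.087 and Fgg highest at 1.41. Right, normalized log2 signal of Serpinc1 against Fgg in each of the 16 conventional and 14 germfree livers, which rise together in both groups.

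Fgg and Serpinc1 were correlated from liver to liver in both groups. Pearson's r was 0.92 in conventional livers (rho 0.85, n = 16) and 0.91 in germfree livers (rho 0.82, n = 14), with permutation p adjusted over 20 relations of 0.0002 and 0.0003 for r and of 0.0016 and 0.0056 for rho. Without the 2 livers farthest from the Fgg median r was 0.90 and 0.83, and both scalings by the median gave r of 0.91 or 0.92. The pair was added because both genes had the widest spread, so its p-values describe a choice made with the values in view.

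Of the 8 pairs of chains of 1 protein, close relatives or neighbouring genes, C6 with C9 in germfree livers passed. Its r was 0.71 (rho 0.76, n = 14, permutation p for r = 0.0044, adjusted 0.0293). Without the 2 livers farthest from the C6 median r was 0.53, no longer past the threshold. In conventional livers this pair had r 0.52 (rho 0.44, adjusted permutation p = 0.111). No pair of chains of 1 protein passed: Fga with Fgg had r 0.16 in conventional and -0.60 in germfree livers, and the 3 pairs of C8 chains had r between -0.17 and 0.35, with adjusted permutation p of 0.0813 or more. Mbl1 and Mbl2 had r -0.57 in conventional livers (adjusted permutation p = 0.0813) and -0.13 in germfree livers. C2 and Cfb, neighbours in the major histocompatibility region, had r -0.25 (rho 0.00, and r 0.34 without the 2 livers farthest from the C2 median) and -0.63 (adjusted permutation p = 0.0813 in germfree livers). F7 and F10, both on chromosome 8, had r 0.14 in conventional and 0.49 in germfree livers (adjusted permutation p = 0.801 and 0.1895).

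The scaling of the arrays decided most of these correlations. By quantile normalization 3 of the 20 relations passed, and 4 passed under median scaling restricted to probes detected on every array. Plain median scaling took 16 of 20 past the threshold. There Mbl1 and Mbl2 had r 0.55 and 0.66, C2 and Cfb 0.79 and 0.47 and F7 and F10 0.91 and 0.82. The C8 pairs had 0.45 to 0.84, while Fga with Fgg had 0.15 and -0.00. Only the correlation of Fgg with Serpinc1 passed in both groups under every setting run.

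A single axis, the first principal component of all genes after centring each group, carried 15.1% of the variance within groups. Of the 34 members, 8 correlated with it at over 0.7 in size, against 3.83% of all genes, a description without a test since the members enter the axis. Cfb (0.85), Serpinc1 (0.83) and Fgg (0.76) lay at one end, and F12 (-0.86), Serping1 (-0.79), F7 (-0.77), Vtn (-0.72) and Pros1 (-0.71) at the other. The axis had r -0.49 with mean raw signal in conventional livers (rho -0.44, permutation p = 0.0545, adjusted 0.218) and -0.18 in germfree livers (rho -0.14, permutation p = 0.532), and the part of array signal in the axis was not tested. With the axis as a covariate, 8.27% of all genes passed (4.79% higher and 3.48% lower), and F12 (adjusted p = 0.0136) and C2 (adjusted p = 0.0350) joined the 6 called members. The axis was taken from the same values within groups. It therefore left each log2 change as it was and could alter only the errors. The SE went from 0.079 to 0.050 for F12 and from 0.064 to 0.058 for C2. These added calls are no separate support for a change.

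Complement genes beyond the 37, which include those made by macrophages and membrane-bound regulators, gave 1 rise and 4 falls. Over all genes tested, 3.75% were higher and 2.74% lower. Of 35 further complement genes, 19 were tested and 14 of these did not pass, with a median log2 change of -0.02 against -0.00 over all genes. Susd4, a membrane protein reported to restrain complement in human cells, had a log2 signal of 5.05, 6.11 and 7.18 in the lowest, median and highest conventional liver and 6.38, 6.90 and 7.39 in germfree livers. Every germfree liver exceeded the conventional mean although the ranges overlapped. It rose 1.77-fold (log2 change 0.82 ± 0.17, adjusted p = 0.00211), or by 0.50 on the log2 scale without background correction.

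Those that fell were C1qa (log2 change -0.41 ± 0.09, adjusted p = 0.00394) and C1qc (-0.41 ± 0.13, adjusted p = 0.0478), which encode chains of C1q, and Cd59b (-0.47 ± 0.11, adjusted p = 0.00906) and Cd59a (-0.28 ± 0.08, adjusted p = 0.0436), which encode membrane inhibitors of the terminal pore. Without background correction the change was -0.26 for C1qa and -0.27 for C1qc. For C1qa the lowest, median and highest conventional livers had 6.24, 6.68 and 7.09 and the germfree livers 5.74, 6.32 and 6.71. All 14 germfree livers were below the conventional mean for C1qa and for Cd59b. The C1qc call was lost without any 1 of 21 livers (adjusted p up to 0.0900, without germfree liver 1), and the Cd59a call without any 1 of 19 (up to 0.0760, without germfree liver 9). The third C1q chain gene, C1qb, had -0.29 ± 0.14 (adjusted p = 0.245), the Kupffer cell complement receptor gene Vsig4 -0.29 ± 0.14, and the collectin gene Colec10 0.38 ± 0.13 (adjusted p = 0.0829; 0.0239 without germfree liver 6).

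C1q is made in liver by Kupffer cells. Of 12 listed marker symbols, of which Emr1 is an older name of Adgre1, 8 were tested, and 3 fell: C1qa, C1qc and, the single one apart from C1q itself, the lectin gene Clec4f (-0.48 ± 0.10, adjusted p = 0.0018). Of all genes tested, 2.74% were called lower. The other 5 markers did not pass, and all 8 had a log2 change below 0. Their summed linear signal ran from 744 over a median of 971 to 1494 in conventional and from 607 over 777 to 1113 in germfree livers, while Cd5l and Cd163 were not detected and Csf1r had no named probe. In these bulk samples fewer Kupffer cells and less RNA per cell cannot be told apart.

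Among markers of other liver cells 3 passed, where 6.49% of all genes tested were called in either direction. Of 8 tested endothelial markers the scavenger receptor gene Stab2 rose (0.47 ± 0.11, adjusted p = 0.00455) and the other 7 did not pass. Of the 8, 3 were above 0 and 5 below, with a list median of -0.08 and a lowest log2 change of -0.49. Their summed signal had a median of 2121 in conventional and 2124 in germfree livers. Of 5 tested stellate cell markers Reln rose (0.35 ± 0.09, adjusted p = 0.0176), with a list median of 0.22, and the summed signal ran from 2442 to 4255 in conventional and from 3365 to 4729 in germfree livers. Of 2 tested erythroid markers the heme synthesis gene Alas2 fell (-0.49 ± 0.12, adjusted p = 0.00711), with sums of 2190 to 5252 and 990 to 4125. None of 5 tested neutrophil and monocyte markers passed. The 34 members come mainly from hepatocytes, and the part of cell makeup in their changes was not tested.

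**Figure D4:**
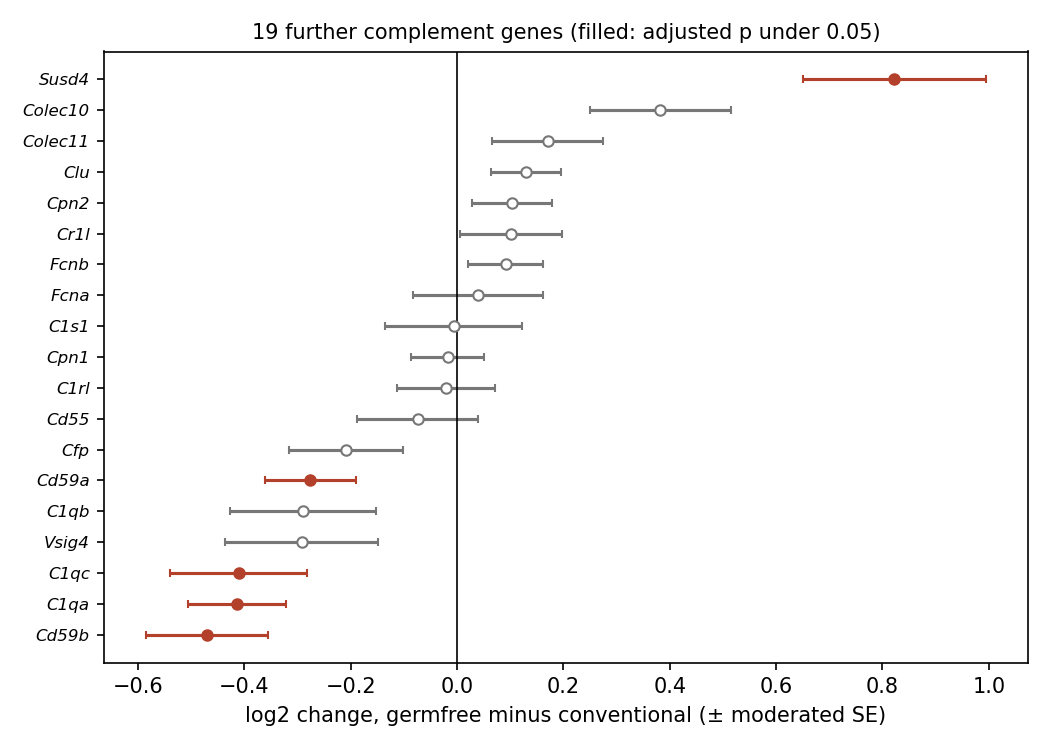
Log2 change (germfree minus conventional) of the 19 tested complement genes outside the 37, with the moderated standard error as bars (14 germfree and 16 conventional livers). Filled points passed an adjusted p of 0.05: Susd4 lies farthest to the right, and Cd59b, C1qa, C1qc and Cd59a lie to the left of 0.

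Further genes of coagulation and fibrinolysis gave no call. Of 33, 18 were tested and none passed, with 10 above 0 and a median log2 change of 0.05. Closest were protein Z, Proz (0.21 ± 0.08, adjusted p = 0.103; 0.0289 without germfree liver 4), histidine-rich glycoprotein, Hrg (0.39 ± 0.16, adjusted p = 0.157), and the protein Z-dependent inhibitor Serpina10 (-0.30 ± 0.14, adjusted p = 0.211). Of 9 platelet markers, 8 were not detected and the 1 tested did not pass.

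Of 14 tested genes of other hepatocyte plasma proteins and receptors, 4 rose, where 3.75% of all genes tested were higher. They were Fetub (0.35 ± 0.08, adjusted p = 0.0034), Asgr2 (0.32 ± 0.07, adjusted p = 0.00372), Ahsg (0.27 ± 0.06, adjusted p = 0.00517) and transferrin, Trf (0.23 ± 0.07, adjusted p = 0.0478). The Trf call was lost without any 1 of 23 livers (adjusted p up to 0.0795, without germfree liver 4). Their list had a median of 0.11, close to the 0.10 of the complement and coagulation members. The 19 tested acute-phase genes had a median of -0.13 with 15 below 0, and only orosomucoid 2, Orm2, fell by the test (-0.72 ± 0.21, adjusted p = 0.0296), a call lost without any 1 of 8 livers (up to 0.0547, without germfree liver 7). Saa3 (-1.13 ± 0.42, adjusted p = 0.112) and Lcn2 (-1.08 ± 0.39, adjusted p = 0.0938) had larger negative values with larger errors and did not pass. Fibrinogen, C9 and factor B are themselves acute-phase proteins in human, and their genes had log2 changes of -0.05 (Fga), -0.41 (Fgg), -0.16 (C9) and 0.05 (Cfb), none past the threshold.

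Orm2 was set against each of the 34 members in each group, 68 relations in all. By Pearson's r, 2 passed in conventional livers and 0 in germfree livers: Fga (r 0.76, rho 0.72, n = 16, adjusted permutation p = 0.0381) and Pros1 (r 0.74, rho 0.69, n = 16, adjusted permutation p = 0.0381). Neither passed by rho (adjusted permutation p = 0.0962 for both), and without the 2 livers farthest from the Orm2 median r was 0.60 and 0.61. In germfree livers r was 0.28 for Fga and 0.37 for Pros1 (n = 14, adjusted permutation p = 0.824 and 0.740), and whether the groups differ in this was not tested. Median scaling took 52 of the 68 past the threshold. Under median scaling restricted to probes detected on every array 3 passed, with r 0.80 for Pros1 (adjusted permutation p = 0.00884) and 0.48 for Fga (0.258) in conventional livers, and without the 2 livers farthest from the median 0 passed. These relations were added after the Orm2 call was seen.

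Of 17 transcription factors known to act on hepatic plasma protein genes, 16 were tested and 2 fell, where 2.74% of all genes were lower. The bile acid receptor gene Nr1h4, whose product induces fibrinogen and kininogen genes in human hepatocytes, had a log2 signal of 10.73, 10.99 and 11.25 in the lowest, median and highest conventional liver and 10.43, 10.65 and 10.83 in germfree livers (log2 change -0.33 ± 0.06, adjusted p = 0.000379). All 14 germfree livers were below the conventional mean. The fibrinogen and kininogen genes tested did not pass. Receptor activity was not measured, and a link between Nr1h4 RNA and these genes was not tested. The homeobox gene Prox1 fell too (-0.53 ± 0.11, adjusted p = 0.0022). Among forkhead genes, Foxa1 had 0.19 ± 0.11 and Foxa2 had -0.17 ± 0.10, and Cebpb had 0.19 ± 0.12, none past the threshold.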

How the data were processed

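Liver RNA of 16 conventional and 14 germfree mice was labelled as biotinylated cRNA and measured on Illumina single-colour arrays, 1 array for each liver. The deposited table held, per the file headers, the raw bead intensity of each probe beside its detection p-value, array by array. The submitters' processing notes name GenomeStudio without a version. The authors also deposited quantile-normalized linear intensity, used here as an alternative. The 33 arrays without a sample in the labels were not used.

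Signals were background corrected with normexp (background from the detection p-values, offset 16), quantile normalized and log2 transformed with neqc in limma 3.58.1 (R 4.3.3). Probes detected at p under 0.05 on at least 7 arrays were kept, 10525 of 24613. Gene names came from the platform annotation, updated by gene identifier, and the probe with the highest mean stood for a gene, giving 9084 genes, of which 7839 were named. The group difference was fitted with lmFit and eBayes of limma, and two-sided p-values were adjusted by Benjamini-Hochberg across the 9084 genes, with 0.05 as the threshold. Errors of log2 changes are moderated standard errors. Correlations and array quality were tested with 100000 permutations, two-sided, in Python 3.11.15 with numpy 2.4.6 and scipy 1.17.1. Checks without 2 livers dropped those farthest from the group median of the first gene named, or of Orm2 in its relations. Outlying values of the other gene were kept. Figures were drawn with matplotlib 3.10.9.

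The members and gene lists were chosen with earlier results of these data known. Named genes are all members, with full values for those past the threshold and the leading member of each role, and from other lists every gene past the threshold and up to 3 more. F11 with Klkb1, Fgg with Serpinc1, the relations with Orm2, the axis covariate and median scaling over detected probes (correlations included) were added after seeing the data. Tested on simulated data of this comparison over 9084 genes, the fit recovered 30% of changes of 0.25 on the log2 scale, 93% of 0.5 and 100% of 1, and called 10 of 8884 unchanged genes. The simulated noise was drawn for each gene apart, without the axis that genes share in the real arrays. The rates in the real data may therefore differ. Nothing in the labels says that equal replicate numbers pair livers, and deviations of the 14 same-numbered pairs correlated from -0.18 to 0.37, over 0.1 in 7 pairs, so the groups were not paired. Normalized arrays correlated at 0.963 to 0.990. The number of arrays limits the precision.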

Additional observations from a re-analysis of the deposited data

How the results depend on the processing

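Directions of the 6 called members were kept under all 16 other settings and all 30 fits that left out 1 liver. At the threshold of 0.05 the F11 and F5 calls were lost only under median scaling. The other 4 depended on more: Klkb1 was lost under 8 of 16 settings (adjusted p 0.0502 with every probe on its own), C6 under 4, Pros1 under 3 and Masp2 under 3. Median scaling called 69 of 9084 genes, 0 members higher and 0 lower. The same scaling restricted to probes detected on every array, added after seeing the data, called 425 genes, 2 members higher and 0 lower. Without a detection filter, with more probes tested, 2 members were higher. At an adjusted p under 0.01 there were 264 genes, 1 member (F11) higher and 0 lower. The replicate number as a block over 14 pairs gave 497 genes, 5 members higher and 0 lower (Masp2, adjusted p = 0.109), and the 28 arrays of that fit without the block gave 476 genes, 3 members higher and 1 lower. Leaving out each liver gave 519 to 609 genes, 2 to 6 members higher, 1 lower, and a member median of 0.08 to 0.11. Signs turned only for F2, to 0.023 under median scaling, 0.0084 under its restricted form, 0.0098 under cyclic loess, 0.014 with the block and on its 28 arrays alone and 0.012 without low-signal arrays, for Fga, to 0.0098 under median scaling, and in fits without 1 liver for F2 (-0.023 to 0.016) and Serpinc1 (-0.14 to 0.062). None of these was called. All calls of named genes outside the 37 were lost under median scaling. Of these, C1qc was lost under 11 of 16 settings, Trf under 6, Cd59a and Orm2 under 5, Reln under 3, and Cd59b and Ahsg under 2. Among correlations, median scaling took 16 of 20 member pairs (3 by quantile normalization) and 52 of 68 relations with Orm2 (2) past the threshold, and leaving out the 2 farthest livers left 0 with Orm2. Signs turned under median scaling for C8a with C8b (0.45, germfree), C8a with C8g (0.79, conventional), C8b with C8g (0.80 and 0.84), Mbl1 with Mbl2 (0.55 and 0.66), C2 with Cfb (0.79 and 0.47) and F11 with Klkb1 (0.78, conventional). They turned under its restricted form for Fga with Fgg (-0.013), C8a with C8g (0.23) and F11 with Klkb1 (0.036) in conventional livers and C8b with C8g (0.38 and 0.26). Without the 2 farthest livers they turned for C8a with C8b (-0.18 and 0.051), C8a with C8g (0.030, conventional), C8b with C8g (0.050 and 0.31) and C2 with Cfb (0.34, conventional). The cause of these shifts was not tested.

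Limits are the 1 probe that stands for most members, the absence of a chip or cage in the labels and the size of the changes, since changes of 0.25 were mostly missed on simulated data. A member that missed the threshold was not shown to be unaltered. RNA in liver does not give plasma protein or clotting activity. High-fat diet and fasting were shared by all mice.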
